A study of Homo sapiens with 4 samples.

Results

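Heat shock proteins and their partner chaperones were examined for MTF-1 peaks at their transcription start sites (TSSs). The set held the protein-coding genes of GENCODE release 44 on chromosomes 1 to 22 and X whose symbols belong to the HSPA, HSPB, HSPD, HSPE, HSPH, HSP90, DNAJA, DNAJB, DNAJC, BAG, HSF and CCT series. It comprised 93 of 19970 protein-coding genes. The genes were chosen by symbol and not by their peaks, but with earlier results of these data known.

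MTF-1, the metal-response transcription factor that is activated by zinc, including zinc that other metals displace from metallothionein, was profiled by CUT&RUN, in which an antibody tethers a nuclease to its target and the DNA released around bound sites is sequenced. All samples were MDA-MB-231 cells, an established human breast cancer cell line. The control group was 2 libraries from untreated cells, and the cadmium group was 2 libraries from cells selected by serial passage in medium with cadmium sulfate and kept at 10 µM. Effects of cadmium in the medium and of the long selection therefore cannot be told apart. The libraries of a condition were merged before peaks were called, so each condition was a single peak list of positions with no height, score or read count. None of the libraries was a background control, and the methods name none for the peak calling. The part of background signal in the peaks was not tested. There was no replicate spread, and the differences below are descriptions of 2 lists with no test. The lists carry no expression values, so the identity of the line was not checked against markers.

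Heat shock proteins fold new proteins, hold unfolding ones and help to clear damaged ones, and many of them are strongly induced when cells meet heat or toxic metals, cadmium among them. HSP70 proteins bind exposed hydrophobic stretches of a client, J proteins deliver clients and stimulate the HSP70 ATPase, and HSP110 and BAG proteins exchange its nucleotide. HSP90 matures signalling proteins, small heat shock proteins hold clients without ATP, and the CCT and HSPD1/HSPE1 chaperonins enclose them in a chamber. The heat shock factors, led by HSF1, are the transcription factors that induce many of these genes.

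The control list held 69299 peaks over 130.4 Mb and the cadmium list 60130 peaks over 90.94 Mb, with median widths of 1399 and 999 bp. The cadmium list was thus the smaller and narrower list before any gene was considered. How many reads went into each list is unknown, and the part of this in any difference of width was not tested. A start-site peak was a peak with at least 1 base within 1 kb of any annotated transcript start of a gene. A peak was shared if it had at least 1 base in common with the other list and unique if it had none.

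Most of the chaperone genes carried MTF-1 peaks at a start in control cells and kept one in cadmium. A start-site peak was present in control for 84 of 93 genes (90.3%, against 73.4% of all protein-coding genes) and in cadmium for 81 (87.1%, against 71.7%). Both lists had one at 81 genes (87.1%, against 70.2%). The control list alone had one at 3 genes, 3.23% against 3.21% of all coding genes. The cadmium list alone had one at 0 of the 93 genes, where 1.50% of all coding genes did. Neither list had one at 9 genes (9.68%, against 25.1%).

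Every gene of the HSP70 (12), HSP110 (3), HSP90 (3), HSPD1/HSPE1 (3) and BAG (6) families had start-site peaks in both lists. Among the J proteins, class C had 26 of 29 genes with peaks in both lists, class B 10 of 12 and class A 3 of 4. The CCT genes had 8 of 9, the heat shock factors 3 of 4 and the small heat shock proteins 4 of 7. The small heat shock proteins were the family with the lowest share, and they are also the family with the most members known from muscle, heart or testis.

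**Figure D1:**
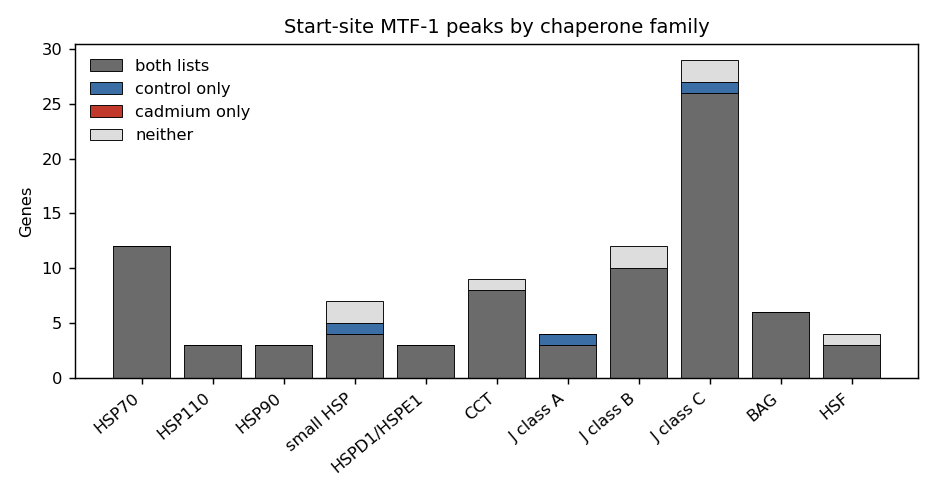
Number of genes (vertical axis) of each chaperone family with a start-site MTF-1 peak in each class: both lists, the control list alone, the cadmium list alone, or neither list. The HSP70, HSP110, HSP90, HSPD1/HSPE1 and BAG bars are entirely in the both-lists class, and no bar has a cadmium-only part. The small heat shock protein bar has the largest share of its genes outside the both-lists class. The readthrough gene HSPB2-C11orf52 is in no bar.

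The genes with no start-site peak in either list were mostly ones with restricted expression. They were CCT8L2, a testis relative of the CCT subunits, the J proteins DNAJB7, DNAJB8, DNAJC12 and DNAJC5G, the heat shock factor HSF5, known from male germ cells, the small heat shock proteins HSPB2 and HSPB3, known from muscle, and the readthrough HSPB2-C11orf52. Of 15 members known mainly from testis, muscle or lens, 8 had a start-site peak in control and 6 in cadmium. Of the other 78 members, 76 and 75 had one. DNAJC12, a J protein that works with aromatic amino acid hydroxylases, had no start-site peak but carried 2 unique control peaks inside the gene, of 2599 and 399 bp. DNAJC5G carried a unique cadmium peak of 1199 bp over an exon.

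The 3 genes with a start-site peak in control only differed in how clear that was. DNAJA4, a class A J protein, carried a unique control peak of 1999 bp at chr15:78264201-78266199, from 361 bp upstream to 1637 bp downstream of its canonical start, and 0 bp of cadmium peak lay within 5 kb of that start. DNAJC5B carried a unique control peak of 399 bp, and 98.2% of control peaks were at least as wide. At HSPB9, a small heat shock protein of testis, the control peak of 4199 bp ended 205 bp before the start. It spanned the start of the neighbouring KAT2A, and it was shared with cadmium peaks of 599 and 799 bp that lay over 1 kb from the HSPB9 start. DNAJA4 was thus the only one of the 3 with a control peak of over 1 kb that no cadmium peak touched.

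Widths at the starts followed those of all genes. The summed width of a gene's start-site peaks had a median of 2999 bp in control and 2599 bp in cadmium over the 81 members with peaks in both lists, against 3199 and 2598 bp for all coding genes. Of the 81 genes with peaks in both lists, 50 had the smaller summed width in cadmium (61.7%, against 64.3% of all coding genes), 21 the larger (25.9%, against 25.3%) and 10 the same (12.3%, against 10.4%). The median log2 ratio of cadmium to control width was -0.26, and it was also -0.26 over all coding genes. As a set, the chaperone genes therefore did not stand apart from the rest in the direction of width.

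**Figure D2:**
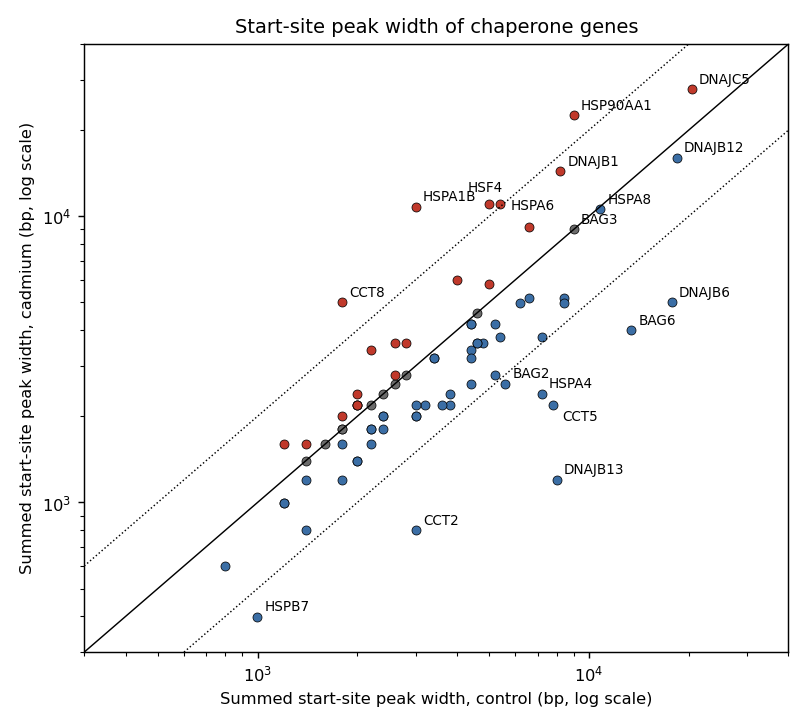
Summed start-site peak width of each of the 81 genes with peaks in both lists, in control (horizontal, bp, log scale) and in cadmium (vertical, bp, log scale). The solid line marks equal width and the dotted lines a 2-fold difference, red points were wider in cadmium and blue points narrower. The points above the upper dotted line are HSPA1B, CCT8, HSP90AA1, HSF4 and HSPA6.

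Genes at both ends of the order were named in full. At least 2-fold wider in cadmium were 5 genes, HSPA1B, CCT8, HSP90AA1, HSF4 and HSPA6 (6.17%, against 2.96% of all coding genes with peaks in both lists). At least 2-fold narrower were 8 genes, DNAJB13, CCT2, DNAJB6, CCT5, BAG6, HSPA4, HSPB7 and BAG2 (9.88%, against 16.0%). HSPA1B, HSP90AA1 and HSPA6 are inducible chaperones of the cytosol and belong to a list of 14 stress-response members. None of the 8 narrowed genes is in that list. The list made up only 14 of the 81 members with peaks in both lists, so few of the 8 would fall in it in any case. The list was drawn up with earlier results of these data known, and no test was made. That list held HSPA1A, HSPA1B, HSPA6, HSPA8, HSPB1, HSPH1, HSPA4L, HSP90AA1, HSP90AB1, HSPD1, HSPE1, DNAJA1, DNAJB1 and BAG3. Most of these are cytosolic and inducible, but HSPD1 and HSPE1 act in mitochondria and HSPA8 and HSP90AB1 are also abundant in unstressed cells. All 14 had peaks in both peak lists. They split into 6 wider, 5 narrower and 3 equal, with a median log2 ratio of 0, where 25.3% of all coding genes were wider and 64.3% narrower. Counted as bases under peaks within 5 kb of the canonical start, a measure chosen after the data were seen and used again for single genes, they were 5 wider, 7 narrower and 2 equal, with a median of -0.02. By summed start-site width, the other 67 members with peaks in both lists split into 15 wider, 45 narrower and 7 equal, with a median of -0.29.

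**Figure D3:**
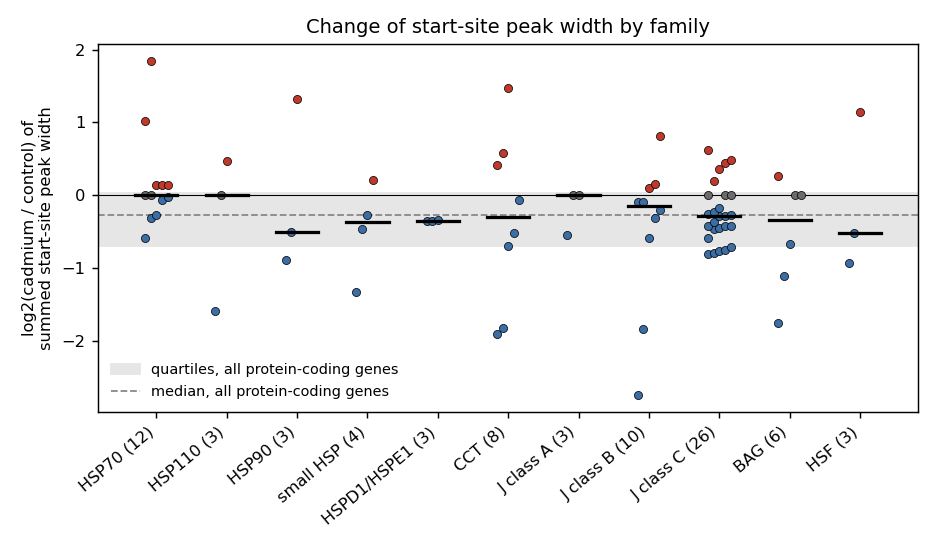
log2 ratio of summed start-site peak width, cadmium over control, for each gene with peaks in both lists (points), by family, with the number of genes in parentheses and the family median as a black bar. The grey band and dashed line are the quartiles and median of all protein-coding genes, and the outlying red points are HSPA1B, HSPA6, HSP90AA1, CCT8 and HSF4.

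Among the HSP70 genes, 5 were wider, 5 narrower and 2 equal in cadmium. HSPA1B, one of the stress-inducible HSP70 genes, had a start-site peak of 2999 bp in control and 10799 bp in cadmium. The latter was 3.60 times as wide (log2 ratio 1.85). The cadmium peak, at chr6:31817401-31828199, ran from 10337 bp upstream to 461 bp downstream of the HSPA1B start. It reached back into the 3′ end of HSPA1A, the neighbouring inducible copy, and lay over control peaks of 3399 and 2999 bp. Together these covered 6398 bp of it, or 59.2%. It was among the widest of its list, in which 0.389% of peaks were at least as wide.

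HSPA1A itself had start-site peaks of 1999 bp in control and 2199 bp in cadmium. This peak also covers the start of HSPA1L, the testis gene transcribed the other way, so the values of both genes are a single measurement. HSPA1A and HSPA1B encode the same protein, and 69.6% of the windows of the HSPA1A transcript that are as long as a read of the study occur unchanged in HSPA1B. The shared stretch lies between bases 209 and 1923 of HSPA1A. No control peak lay between bases 258 and 2404 of HSPA1A or between 463 and 1863 of HSPA1B, and no cadmium peak between 458 and 1858 or between 463 and 1663. The gaps thus overlap the shared stretch, where reads from the copies cannot be told apart, and the part of this in where the peaks begin and end was not tested.

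The 250 bases before the RefSeq starts of the 2 copies (GRCh38.p14) are shown because both lie under peaks in both lists while only HSPA1B joined the wide cadmium peak. Capitals mark the bases that differ or have no partner in a global alignment, in which 235 of 250 bases were identical (94.0%). The windows are chr6:31815293-31815542 and chr6:31827488-31827737, both on the plus strand.
HSPA1A: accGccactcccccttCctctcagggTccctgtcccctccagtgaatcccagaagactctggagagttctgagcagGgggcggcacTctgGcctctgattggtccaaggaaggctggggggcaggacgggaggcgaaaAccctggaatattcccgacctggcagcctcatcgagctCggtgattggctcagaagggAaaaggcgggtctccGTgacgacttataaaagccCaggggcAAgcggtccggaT
HSPA1B: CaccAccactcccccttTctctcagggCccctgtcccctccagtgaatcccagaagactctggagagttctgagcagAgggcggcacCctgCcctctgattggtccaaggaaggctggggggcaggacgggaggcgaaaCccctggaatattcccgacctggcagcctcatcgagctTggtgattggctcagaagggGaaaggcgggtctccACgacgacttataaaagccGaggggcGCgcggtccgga

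HSPA6, a strictly inducible HSP70 of primates and some other mammals, had a peak of 5399 bp in control and 10999 bp in cadmium, 2.04 times as wide (log2 ratio 1.03). Both peaks began 2739 bp upstream of the start. The control peak ended 2659 bp downstream and the cadmium peak 8259 bp downstream, well past the end of this short gene. Control peaks covered 8398 bp of the cadmium peak (76.4%), since a further control peak of 4599 bp began 5261 bp downstream. Of the HSPA6 transcript, 15.1% of such read-length windows also occur in HSPA7, a copy nearby on chromosome 1.

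At the other HSP70 genes the summed start-site widths differed less between the lists than at HSPA1B and HSPA6. HSPA8, the main cytosolic HSP70 of unstressed cells, had a peak of 10799 bp in control and 10599 bp in cadmium, and both covered the whole gene. HSPA5, the HSP70 of the endoplasmic reticulum, had 4399 and 4199 bp, and HSPA9, its mitochondrial counterpart, 2399 and 1999 bp. HSPA2 had 1799 bp and HSPA13 1599 bp in both lists. HSPA14 had 1999 and 2199 bp, HSPA12A 5197 and 4198 bp, and HSPA12B 1799 and 1199 bp. None of these reached a 2-fold difference, and neither did the inducible HSPA1A. By the bases under peaks within 5 kb of the canonical start this order did not hold, with log2 ratios of 0.26 at HSPA5, -0.32 at HSPA9 and -0.58 at HSPA12B against 0.24 at HSPA1B and 0.17 at HSPA6.

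The nucleotide exchange factors of the HSP110 family went different ways. HSPH1, the inducible HSP110, had 2599 bp in control and 3599 bp in cadmium. Both peaks began 1095 bp upstream of the start, and they ended 1503 bp downstream in control and 2503 bp downstream in cadmium. HSPA4L had 2799 bp in both. HSPA4, the constitutive member, had 7199 bp in control and 2399 bp in cadmium, a log2 ratio of -1.58. Its control peak lay over cadmium peaks of 2599 and 2399 bp, and only the latter counted as a start-site peak. Within 5 kb of the canonical start, peaks covered 6787 bp in control and 4586 bp in cadmium, a log2 ratio of -0.57.

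Of the HSP90 genes, HSP90AA1, the inducible cytosolic form, was wider in cadmium and the other 2 were narrower. Its start-site peaks summed to 8997 bp in control and 22598 bp in cadmium, 2.51 times as much (log2 ratio 1.33). The cadmium peak at chr14:102068801-102088799 spanned 19999 bp, from 1755 bp upstream to 18243 bp downstream of the canonical start, and only 36 of 60130 cadmium peaks were at least as wide. It lay over 4 separate control peaks of 3599, 2199, 2799 and 1599 bp, which covered 10196 bp of it (51.0%). When only peaks centred within 1 kb of a start were counted, this peak was left out and the log2 ratio turned to -1.79. The upstream edge was the same in both lists, and the canonical transcript ends 6302 bp downstream of its start. HSP90AB1, the constitutive cytosolic form, had 5399 and 3799 bp, and HSP90B1, the form of the endoplasmic reticulum, 5199 and 2799 bp.

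Some of the wide cadmium peaks joined several control peaks. Of 98 distinct cadmium start-site peaks, 9 lay over at least 2 control peaks (9.18%, against 3.43% of the start-site peaks of all coding genes), those of CCT8, DNAJB1, DNAJC4, DNAJC5, HSF4, HSP90AA1, HSPA1B, HSPA6 and HSPB8. Of 106 distinct control peaks, 8 lay over at least 2 cadmium peaks (7.55%, against 5.93%), those of BAG6, DNAJB5, DNAJC30, DNAJC5, DNAJC7, HSPA4, HSPB1 and HSPB9. These 9 genes were 42.9% of the 21 members that were wider in cadmium, against 15.1% of all wider coding genes, and the other 12, among them HSPH1, CCT3 and CCT7, had no such peak. All 5 genes that were at least 2-fold wider had one, against 40.2% of all coding genes with a width difference of that size. Because joining adds width that control peaks nearby already had, the bases under any peak within 5 kb either side of the canonical start were also counted at single genes. By this count the log2 ratio was 0.24 at HSPA1B, 0.25 at CCT8, 0.22 at HSP90AA1, 0.37 at HSF4 and 0.17 at HSPA6. All 5 stayed above 0. Among the genes at least 2-fold narrower, it was -1.91 at CCT2, -1.64 at BAG6, -1.185 at CCT5 and -1.11 at BAG2. It was -1.02 at HSPB7, -0.64 at DNAJB6 and -0.57 at HSPA4. At DNAJB13 it was 0, since the start-site peaks of that gene lay outside the window. The window limits this count, since control peaks already covered 7460 bp of it at HSPA1B, 6859 bp at HSPA6, 5798 bp at HSP90AA1 and 5399 bp at HSF4, and the widened peaks of HSPA1B, HSP90AA1, HSPA6 and HSF4 ran beyond it. At HSPA1A it was larger instead, at 1999 bp in control and 5342 bp in cadmium (log2 ratio 1.42), since the joined peak begins inside that gene.

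**Figure D4:**
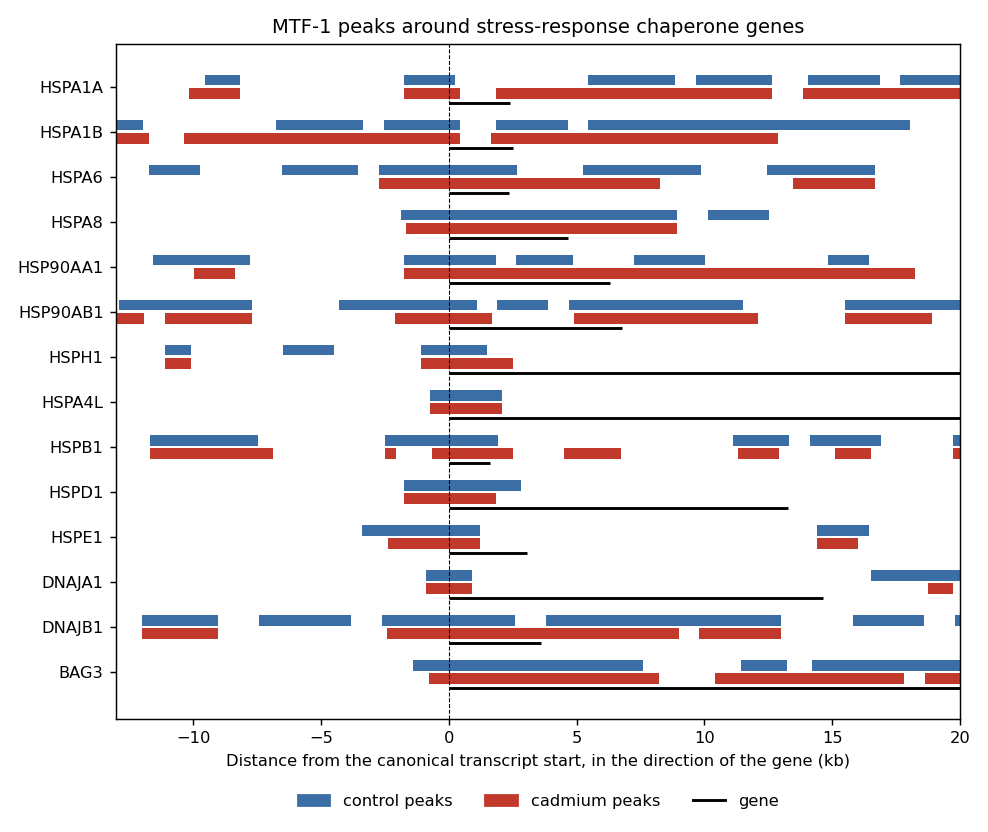
MTF-1 peaks in control (blue) and cadmium (red) around the 14 chaperone genes of the stress-response list, by distance from the canonical start in the direction of the gene (kb, 13 kb upstream to 20 kb downstream, peaks drawn up to the edges of the window), with the gene as a black line. The red bars at the starts of HSP90AA1, HSPA6, HSPA1B and DNAJB1 each lie over several blue bars. The bars at the starts of HSPA8, HSPA4L and DNAJA1 are alike, and a further blue bar downstream of HSPA8 has no red one.

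DNAJB1, the class B J protein that partners inducible HSP70, showed how far this matters. Its start-site peaks were 5199 and 2999 bp in control and 11399 and 2999 bp in cadmium, which sum to 8198 and 14398 bp (log2 ratio 0.81). The 11399 bp cadmium peak ran from 2402 bp upstream to 8996 bp downstream, and control peaks covered 89.5% of it. Within 5 kb of the start the lists covered 7599 bp in control and 7403 bp in cadmium, a log2 ratio of -0.04. At 3 kb from a start the ratio was also negative, at -0.60. The longest cadmium peak at DNAJB1 was thus longer than that of control, but cadmium peaks did not cover more of the sequence around the start.

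Past the 3′ ends, 17 of 93 members had more bases under cadmium peaks than under control peaks (18.3%, against 10.6% of all coding genes), 23 had fewer (24.7%, against 21.7%) and 53 the same. All of these counts are over the 5 kb after the annotated end. Cadmium peaks covered at least 2000 bases more than control peaks at 4 of 93 members (4.30%, against 0.711% of all coding genes). These were HSPA1A, HSPA6, HSP90AA1 and HSPB1, all in the stress-response list, which was drawn up with earlier results of these data known. HSPA1A had 1946 bases in control and 5000 in cadmium. HSPA6 had 2399 and 5000, and HSP90AA1 2799 and 5000, so in these genes cadmium peaks filled the whole window. At HSPA1A the peak that filled it was the wide start-site peak of HSPA1B. At HSPA6 and HSP90AA1 it was the gene's own widened start-site peak. The flanks of these genes are therefore not observations separate from the widening at starts.

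At HSPB1, which encodes HSP27, the start-site peak was narrower in cadmium, at 3199 bp against 4399 bp, while the flank went the other way, with 304 bases in control and 2999 in cadmium. The HSPB1 flank included a cadmium peak of 2199 bp, from 4528 to 6726 bp downstream of the start, that no control peak overlapped. The reverse, at least 2000 more bases in control, was seen at BAG6, DNAJA1, DNAJB13 and DNAJC6 (4.30%, against 3.69%). DNAJA1, also in the stress-response list, had 3107 bases in control and 907 in cadmium. The window and the limit of 2000 bases were chosen after the data were seen.

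**Figure D5:**
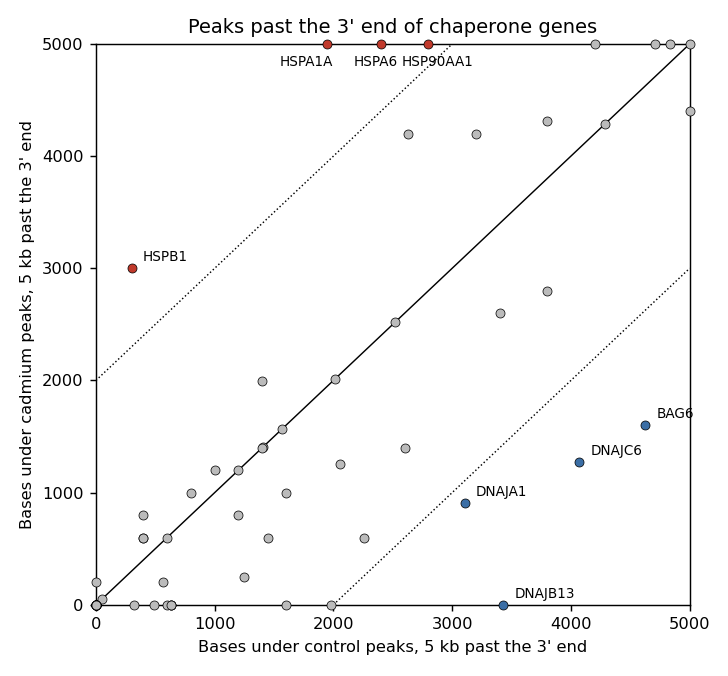
Bases under control peaks (horizontal) and cadmium peaks (vertical) in the 5 kb past the 3′ end of each of the 93 genes. The solid line marks equal coverage and the dotted lines a difference of 2000 bases, with HSPA1A, HSPA6, HSP90AA1 and HSPB1 (red) above the upper line and BAG6, DNAJC6, DNAJA1 and DNAJB13 (blue) below the lower one.

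Of the small heat shock proteins with peaks in both lists, HSPB1, HSPB6 and HSPB7 were narrower in cadmium. HSPB6, known from muscle, had 2399 and 1999 bp. HSPB7, known from heart, had 999 and 399 bp, 958 bp or more upstream of its canonical start, and under the canonical start alone it counted as control only. HSPB8, the partner of BAG3 in selective autophagy, had control peaks of 2399 and 2599 bp and a single cadmium peak of 5799 bp over both of them. The summed widths of HSPB8 were close, at 4998 and 5799 bp. At its canonical start alone they were 2599 and 5799 bp (log2 ratio 1.16).

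BAG3, the stress-induced member of the BAG family, had a peak of 8999 bp in both lists, from 1379 bp upstream to 7619 bp downstream in control and from 779 bp upstream to 8219 bp downstream in cadmium. BAG4 had 2399 bp in both, and BAG5 had 1999 bp in control and 2399 bp in cadmium. BAG1 had 3799 and 2399 bp, and BAG2, which inhibits the ubiquitin ligase CHIP, 5599 and 2599 bp. BAG6, which guards membrane proteins before their insertion, had control peaks of 7599 and 5799 bp and cadmium peaks of 2199 and 1799 bp, a log2 ratio of -1.75. Within BAG6 the canonical start and the internal starts near its 3′ end were thus both narrower in cadmium, and the latter control peak also spans a start of PRRC2A.

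Both ends of the order held subunits of the CCT chaperonin, which folds actin and tubulin. CCT2 had a peak of 2999 bp in control and 799 bp in cadmium (log2 ratio -1.91), the cadmium peak lying wholly within the control peak. CCT5 had 4999 bp at its canonical start and a unique control peak of 2799 bp at an internal start, against 2199 bp in cadmium (log2 ratio -1.83). CCT8 had 1799 bp in control and 4999 bp in cadmium (log2 ratio 1.47), where the cadmium peak also lay over an upstream control peak of 2399 bp and a start of MAP3K7CL. When starts were extended to 3 kb, that upstream peak was counted in control and the CCT8 log2 ratio was 0.25. Of the remaining subunits, CCT3 and CCT7 were wider by summed width and CCT4, CCT6A and CCT6B narrower, so the subunits of the complex did not move together. At the canonical start alone, CCT7 was slightly narrower, at 3999 and 3799 bp, and CCT6B had 999 bp in both lists.

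A chosen list held 9 mitochondrial members (HSPA9, HSPD1, HSPE1, DNAJA3, DNAJC11, DNAJC15, DNAJC19, DNAJC28 and DNAJC30). These 9 were all narrower in cadmium, where 64.3% of all coding genes were. The list was drawn up with earlier results of these data known and need not hold every mitochondrial member. Their log2 ratios ranged from -0.79 to -0.17 with a median of -0.34, against -0.26 for all coding genes. HSPD1 and HSPE1 are transcribed from a common promoter, and their shared peak, which also serves the readthrough HSPE1-MOB4, was 4599 bp in control and 3599 bp in cadmium, so they are not separate observations. DNAJC15 had 799 and 599 bp, the difference of a single bin of the peak caller. DNAJC11 (1799 and 1599 bp), DNAJC19 (1199 and 999 bp) and DNAJC28 (1399 and 1199 bp) also differed by a single bin. Of 10 members listed for the endoplasmic reticulum, 6 were narrower, 1 wider and 3 equal, with a median of -0.08. DNAJB9, an unfolded protein response gene, was the wider one, at 1799 and 1999 bp.

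The 45 J proteins held the widest peaks. DNAJC5, the cysteine string protein of secretory vesicles, had 20399 bp in control and 27799 bp in cadmium, each covering its canonical start. Only 61 control peaks and 10 cadmium peaks were at least as wide. These peaks also covered a start of TPD52L2. DNAJB12, a J protein of the endoplasmic reticulum membrane, had peaks of 14799 and 3599 bp in control and 13999 and 1999 bp in cadmium, the wider one at internal starts, from 16120 bp downstream of the canonical start in control and 16920 bp in cadmium. Across the J proteins with peaks in both lists, 26 were narrower, 8 wider and 5 equal, with a median of -0.26. DNAJA1 with 1799 bp and DNAJA2 with 2599 bp had the same width in both lists.

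The largest decrease was at DNAJB13, an axonemal J protein. Its control peak of 7999 bp and its cadmium peak of 1199 bp (log2 ratio -2.74) lay at an internal start, from 11575 and 12575 bp downstream of the canonical start,, and neither list had a peak at its canonical start. DNAJB6, which suppresses aggregation of polyglutamine proteins, had 3 control start-site peaks that summed to 17797 bp and a single cadmium peak of 4999 bp (log2 ratio -1.83). At its canonical start alone the peaks were 7799 and 4999 bp (log2 ratio -0.64), so the internal starts made up most of the difference.

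Of the heat shock factors with peaks, HSF1 and HSF2 were narrower in cadmium and HSF4 wider. HSF1, the main activator of the heat shock response, had 5399 bp at its canonical start and a unique peak of 1799 bp at an internal start in control, against 3799 bp in cadmium (log2 ratio of the sums -0.92). HSF2 had 1999 and 1399 bp. HSF4, known from the lens, had control peaks of 1599 and 3399 bp and cadmium peaks of 6599 and 4399 bp, a log2 ratio of 1.14. The wider HSF4 cadmium peak also spanned starts of TRADD and FBXL8 upstream, and control peaks covered 57.6% of it. With starts extended to 3 kb the HSF4 log2 ratio was 0.46.

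Unique start-site peaks were few. A unique control peak lay at a start of 8 members (8.60%, against 8.54% of all coding genes), CCT5, DNAJA4, DNAJB6, DNAJC5B, DNAJC6, DNAJC8, HSF1 and HSPA12A. At all of these except DNAJA4 and DNAJC5B another start-site peak was shared. The DNAJC8 one was 199 bp, a single bin. A unique cadmium peak lay at a start of 2 members (2.15%, against 4.13%), CCT7 with 1399 and 799 bp and DNAJB5 with 799 bp, each at internal starts. Within the genes but away from starts, 17 members had a unique control peak (18.3%, against 23.4%) and 3 a unique cadmium peak (3.23%, against 14.0%), HSPA12A, DNAJC5G and DNAJC5B. Of the 74 control peaks inside the genes 24 were unique, and of the 60 cadmium peaks 5. Peaks inside all coding genes were not counted in this way, and the control list is the larger one. The difference is therefore not read as a trait of the chaperone genes.

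Chaperone partners outside the symbol rule were scored in the same way. Of 32 such genes, among them the CCT subunit TCP1 and the cochaperones STIP1, CDC37, HYOU1, TRAP1 and the prefoldin subunits, 30 had start-site peaks in both lists and 2 in neither. Over all coding genes, 70.2% had peaks in both lists and 25.1% in neither. Of the 30, 23 were narrower (76.7%, against 61.7% of members and 64.3% of all coding genes). A further 6 were wider (20.0%, against 25.9% and 25.3%) and 1 was equal. The median log2 ratio was -0.35, against -0.26 for members and for all coding genes.

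The promoters were searched for the heat shock element, the inverted repeat of the 5-base unit NGAAN that heat shock factors bind. RefSeq promoters, 250 bases before to 50 after each start on GRCh38.p14, were found for 82 of the 93 members, 107 promoters in all. BAG4, CCT6A, DNAJC1, DNAJC22, DNAJC24, DNAJC5B, HSF1, HSPA12B, HSPA14, HSPB2 and HSPB2-C11orf52 had no entry. The letters GAANNTTCNNGAA, on either strand, occurred in 7 member promoters (6.54%) and in 90 of the 22199 promoters of all coding genes (0.405%). The 7 promoters were those of HSPA6, HSPD1, HSP90AB1, DNAJB6, DNAJA1, HSPA8 and HSP90AA1, and each match lay under a start-site peak in both lists. The matches are letters and not measured binding of a heat shock factor. The search allowed no mismatch, so an element with a changed base was not counted. Promoters without a match, such as those of HSPA1A, HSPA1B, DNAJB1, HSPH1 and HSPB1, were therefore not shown to lack an element.

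Of those, HSPA6 and HSP90AA1 are the genes whose cadmium peak was at least 2-fold wider. Their 250 bases before the start are shown with the heat shock element in capitals, at chr1:161524290-161524539 on the plus strand and chr14:102087045-102087294 on the minus strand.
HSPA6: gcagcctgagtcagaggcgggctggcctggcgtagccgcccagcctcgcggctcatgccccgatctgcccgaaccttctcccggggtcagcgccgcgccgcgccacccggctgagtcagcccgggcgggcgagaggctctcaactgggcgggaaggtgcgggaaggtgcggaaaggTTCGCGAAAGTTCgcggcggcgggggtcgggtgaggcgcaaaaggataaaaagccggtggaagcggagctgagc
HSP90AA1: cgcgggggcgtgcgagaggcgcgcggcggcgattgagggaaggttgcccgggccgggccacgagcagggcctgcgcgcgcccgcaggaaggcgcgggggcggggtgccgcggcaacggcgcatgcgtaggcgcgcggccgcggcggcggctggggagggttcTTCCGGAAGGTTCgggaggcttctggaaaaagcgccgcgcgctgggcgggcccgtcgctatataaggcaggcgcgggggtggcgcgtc

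The elements of the other 5 genes are shown with up to 6 flanking bases, because their peaks were equal or narrower in cadmium although the same letters are present. HSP90AB1 and HSPA8 hold 2 elements each, and the HSPD1 run holds 2 overlapping matches.
HSPD1: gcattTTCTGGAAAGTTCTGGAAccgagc
HSP90AB1: agcaggTTCTGGAAGATTCatgggc
HSP90AB1: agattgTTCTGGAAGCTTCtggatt
DNAJB6: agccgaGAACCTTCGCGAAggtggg
DNAJA1: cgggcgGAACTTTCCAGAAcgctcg
HSPA8: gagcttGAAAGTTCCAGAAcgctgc
HSPA8: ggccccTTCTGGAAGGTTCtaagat
The start-site widths of these genes in control and cadmium were 6598 and 5198 bp at HSPD1, 5399 and 3799 bp at HSP90AB1, 17797 and 4999 bp at DNAJB6, 1799 bp in both at DNAJA1, and 10799 and 10599 bp at HSPA8. Genes with the same letters in their promoter thus had wider, equal and narrower peaks in cadmium.

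The core of the metal response element, to which MTF-1 is known to bind, was searched as TGCACNC and TGCGCNC on both strands. It occurred in 39 member promoters (36.4%), against 33.8% of all. The AP-1 letters TGACTCA, which read TGAGTCA on the other strand, occurred in 2 (1.87%, against 4.01%), those of HSPA6 and BAG3. The median ratio of observed to expected CpG was 0.847 over 96 promoters of members with peaks in both lists and 0.278 over 7 promoters of members with peaks in neither, against 0.737 over all promoters. The promoters without peaks were also lower in GC content, at 49.0% against 65.0%. Not all of them were CpG-poor, since HSF5 had a CpG ratio of 0.897, and DNAJC5G had 0.61 with a GC content of 64.7%.

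Many of the start-site peaks serve other genes as well. Of the 81 members with peaks in both lists, 39 had the start of another protein-coding gene under a start-site peak (48.1%, against 33.1% of all coding genes with peaks in both lists), so the peak cannot be assigned to the chaperone gene alone. HSPA6, HSP90AA1 at its canonical start and HSPA1B held no other coding start under their widened peaks.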

How the data were processed

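MTF-1 was profiled by CUT&RUN in 2 libraries from control and 2 from cadmium-exposed MDA-MB-231 cells. Per the methods, adaptor-trimmed reads were mapped by the authors to hg38 (Bowtie2), pooled by condition (SAMtools 1.8) and passed to the peak caller Epic2 0.0.50, which joins enriched bins of 200 bp. The version comes from the submitters' processing notes, which list the tool as SICER. The deposited files are 1 peak list per condition, with positions in base pairs and a last column that holds 1 constant value, and no counts, signal or score per the file headers and contents. Depth and replicate spread are therefore unknown, and a joined or split peak changes width without any change in reads being shown.

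Members, lists and tests were chosen with earlier results of these data known. Each gene's peaks were taken within 1 kb of any GENCODE 44 transcript start, and widths were end minus start. The main counts over members are set beside the same counts over all 19970 protein-coding genes of chromosomes 1 to 22 and X, and no test was run. The named genes were those with a start-site peak in 1 list or none, those with a unique start-site peak, the 5 largest and 5 smallest log2 ratios, the 3 widest peaks of each list, and the stress-response list and small families. Any other gene named was chosen after its values were seen. The scoring was checked on made-up input with known answers. Peak ends were checked against the hg38 chromosome lengths, and all but the mitochondrial peak of each list lay within them. Promoter sequences came from RefSeq (GRCh38.p14) and all printed ones matched the hg38 sequence. Python 3.11.15, numpy 2.4.6, biopython for the alignment and matplotlib 3.10.9 were used. No column lacked a group, and distances, starts, minimum width and overlap were varied as alternatives.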

Additional observations from a re-analysis of the deposited data

How the results depend on the processing

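No paired analysis was possible because the replicates of each condition were merged before peak calling and the lists carry no replicate numbers, so no replicate could be left out either. With peaks centred within 1 kb of a start, 7 members had a start-site peak in control only and 4 in cadmium only, against 3 and 0. With peaks of at least 1000 bp, 5 were in control only and 1 start-site peak was unique in cadmium, against 3 unique peaks. With starts extended to 3 kb, 2 were in cadmium only and 5 in neither list, against 0 and 9. With sharing defined as 50% coverage, 19 control peaks were unique, against 8. These counts move by construction, since the rule decides which peaks are counted. The counts with peaks in control, in cadmium and in both lists, the counts of narrower and wider genes and the median log2 ratio stayed within 1.5 times of the values given or kept their sign under every alternative run, with the median from -0.29 to -0.13. Of the named genes, HSP90AA1 turned to -1.79 with peaks centred within 1 kb, and DNAJB1 turned to -0.60 at 3 kb, -1.45 with centred peaks and -0.0377 within 5 kb. At the canonical start alone, the log2 ratio was 2.47 at HSP90AA1, 2.04 at HSF4 and -0.64 at DNAJB6. By that rule HSPB8 (1.16) and DNAJB1 (1.13) were also at least 2-fold wider, and DNAJC7 (-1.495) and DNAJB5 (-1.06) at least 2-fold narrower. DNAJB6 was no longer 2-fold narrower, and DNAJB13 and HSPB7 had no ratio. Which genes reached a 2-fold difference thus depended on the starts counted. The per-gene alternatives and the 5 kb count were added after the data were seen. Depth is unknown, so narrow peaks near the caller's threshold could not be weighted.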
